A study of Bos taurus with 60 samples.

Results

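The 100 most stable genes of the bovine endometrium were the genes whose transcript abundance varied least across 60 heifers. Abundance was expressed as log2 CPM, where CPM is a gene's read count relative to the size of its library, after scaling with TMM factors, which correct for a few very abundant genes taking reads from the rest. Of 24616 genes in the table, 14363 passed the filter on low counts. A gene was eligible when its mean log2 CPM over the heifers was 5 or more, about 32 CPM, and when it was not among the 100 genes with the largest total counts. This left 5606 genes, and the 100 with the smallest standard deviation (SD) over all 60 heifers were taken. The SD itself therefore chose the members. Every value that follows from a small SD, including a small difference between dietary groups, is given as a description.

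The samples were uterine endometrium of nulliparous crossbred beef heifers, collected 16 days after artificial insemination with semen of a single sire. For 30 days before insemination heifers received a control diet with a palmitic acid source or a diet with a fish oil-based n-3 polyunsaturated fatty acid (n-3 PUFA) supplement. After insemination they either stayed on a high plane of nutrition or were restricted to a low plane, with the supplement kept in both, which gave the groups CON_Low (n = 14), CON_High (n = 14), PUFA_Low (n = 15) and PUFA_High (n = 17). Pregnant and non-pregnant heifers were present in each group, and which heifers were pregnant did not enter the analysis. The study's own texts disagree on which n-3 PUFA group held 15 heifers and which held 17, and the sample labels were followed.

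Genes of even abundance serve as references in expression studies. Their transcripts are assumed to stand for the amount of RNA measured, so that another gene can be read relative to them. In cattle the elongating conceptus secretes interferon tau, which acts on the endometrium to maintain the corpus luteum and strongly raises interferon-stimulated transcripts. A reference for this tissue is thus exposed to the diet and to the interferon response alike. Gene symbols could not be attached to the members, because the table gives Ensembl identifiers only and no table used here pairs these identifiers with names. Genes are named below by identifier, and their roles, protein sequences and promoters are not described.

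Library totals lay between 9635800 and 13943800 reads (median 11556300). Each member had a count of at least 251 in every heifer, and the median count of a member ranged from 376.5 to 7134. The 60 samples are separate heifers, so the spread between them includes animal-to-animal differences. The 100 most abundant genes took 17.9% to 30.6% of the reads of a library. That share was 25.8% ± 3.31 (SD, n = 15) in PUFA_Low against 20.9% ± 1.91 (SD, n = 17) in PUFA_High, 21.8% ± 2.16 (SD, n = 14) in CON_Low and 22.0% ± 2.99 (SD, n = 14) in CON_High. In bulk tissue, fewer cells of a type and less RNA per cell cannot be told apart.

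The SD of a member's log2 CPM over the heifers was 0.103 to 0.143, with a median of 0.133. The median of the 5606 eligible genes was 0.307. In linear units the coefficient of variation of the members was 7.08% to 10.5% (median 9.23%), against a median of 21.8% for the eligible genes. The highest heifer exceeded the lowest by 1.38-fold to 1.95-fold (median 1.55-fold), and for 28 members this ratio was under 1.5. Among the eligible genes the median ratio was 2.83. Around the limit of the list the spread changed smoothly. The members ranked 96 to 100 had SDs of 0.142 to 0.143, and the next 5 genes outside the list had SDs of 0.143 to 0.144.

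**Figure D1:**
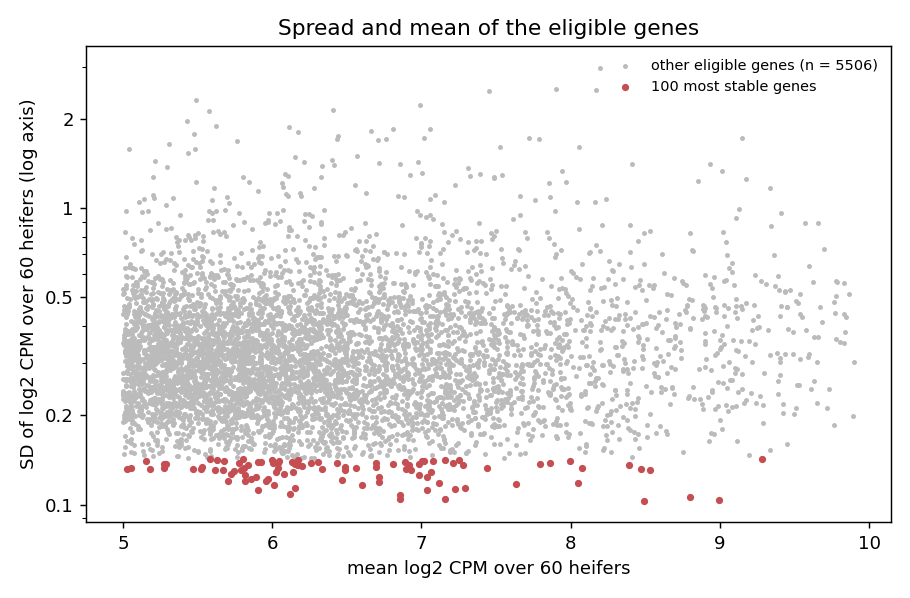
SD of log2 CPM over 60 heifers (vertical, log axis) against mean log2 CPM (horizontal) for the 5606 eligible genes, with the 100 most stable genes in red. The red points form the lower edge of the cloud, from 0.103 to 0.143, along most of the abundance range.

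The member with the smallest SD was ENSBTAG00000021771, with an SD of 0.103 and a mean of 361 CPM. Its lowest, median and highest values were 319, 368 and 402 CPM in CON_Low, 295, 360.0 and 394 CPM in CON_High, 322, 359 and 416 CPM in PUFA_Low, and 313, 365 and 401 CPM in PUFA_High. The ranges of the 4 groups overlapped almost entirely, and the lowest and the highest heifer came from different diets. ENSBTAG00000000215, the second in rank and more abundant with a mean of 511 CPM, had group medians of 520, 506, 495 and 514 CPM in CON_Low, CON_High, PUFA_Low and PUFA_High, and single heifers between 425 and 629 CPM. The lowest of these heifers was in PUFA_Low and the highest in PUFA_High.

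ENSBTAG00000020664, the third, had a mean of 143 CPM, and its group medians were 142, 139, 148 and 139 CPM in the same order of groups. Its lowest heifer (124 CPM) and its highest (173 CPM) were both in PUFA_High. ENSBTAG00000007515, next in rank, had a mean of 116 CPM and group medians of 121, 113, 115 and 116 CPM. For both genes the heifers of every group spread over more than the distance between the medians. ENSBTAG00000016744, the fifth, had the narrowest span of the 100 members: its lowest heifer, in CON_High, had 379 CPM and its highest, in CON_Low, had 522 CPM.

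**Figure D2:**
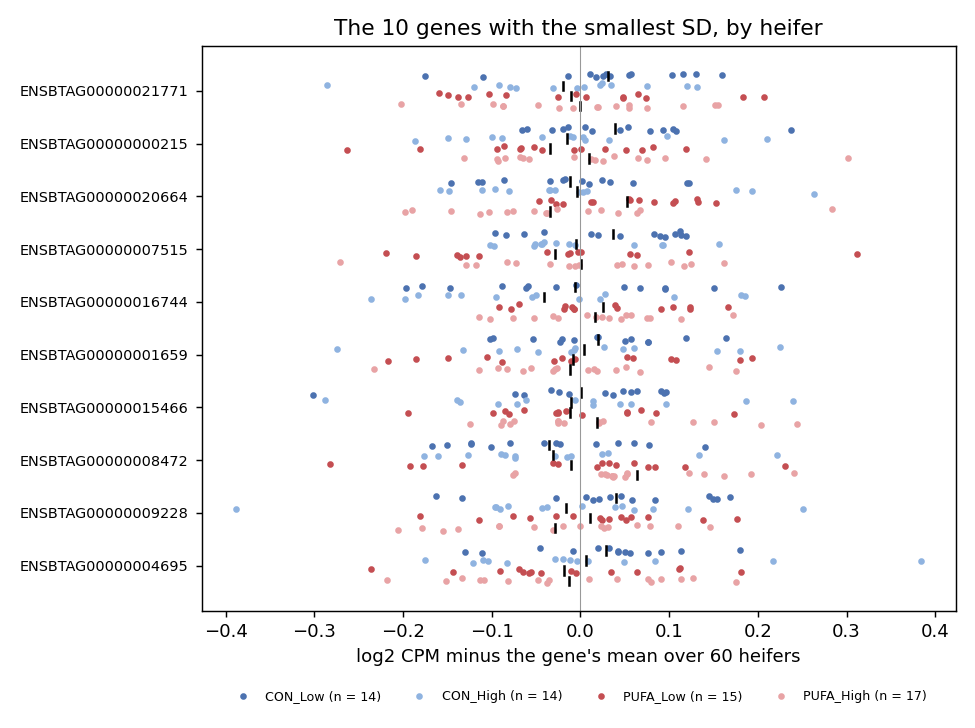
Deviation of each heifer's log2 CPM from the gene's mean over 60 heifers for the 10 genes with the smallest SD, coloured by dietary group, with the mean of each group as a black bar. Group means lie near 0 for all 10 genes, while single heifers reach about 0.4 on either side.

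The members came from most of the abundance range. There were 32 among the 2496 eligible genes with a mean log2 CPM of 5 to 6 (1.28%), 40 among 1717 from 6 to 7 (2.33%), 19 among 913 from 7 to 8 (2.08%), 8 among 332 from 8 to 9 (2.41%) and 1 among 148 from 9 to 10 (0.676%). The most abundant member, ENSBTAG00000010242, had a mean of 624 CPM. The least abundant, ENSBTAG00000007133, had a mean of 32.6 CPM. None of the 100 most abundant genes had an SD as small as that of a member (their smallest was 0.206). Of the 8657 tested genes with a mean log2 CPM under 5, 3 did. Random sampling of reads alone gives larger SDs at low abundance. Over all tested genes the upper quartile of that sampling SD was 0.172, above every member's SD. The count of 3 therefore does not show how many stable genes the lower limit set aside.

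Counting error was a visible share of so small a spread. The variance that random sampling of reads alone would give was 1.45% to 31.9% of a member's variance, with a median of 13.5%, against a median of 2.61% for the eligible genes. It was over 20% for 22 members. The biological coefficient of variation that edgeR estimates was 0.0891 to 0.120 for the members (median 0.105) and had a median of 0.205 over the eligible genes. For each gene edgeR draws this estimate toward genes of similar abundance. The members' median even lay above that of their whole coefficient of variation, 9.23%. It is therefore not read as the members' spread without counting error. Chosen again with the sampling variance subtracted from each gene's variance, the list kept 88 of the 100 members.

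Part of the heifers' deviations was common to several members. The first and second principal components of the members held 13.1% and 12.1% of their variance, compared with 27.7% and 22.0% for the eligible genes, and 7 components of the members held over 5% each. Dietary group took a median of 5.23% of a member's variance. When nothing differs, 3 of 59 degrees of freedom take 5.08% on average. That value is a mean and not a median, so the members' median is not judged by it. The eligible genes had a median of 9.54%. For 20 members the share was over 10%, and the highest was 32.2%, for ENSBTAG00000020630. The prefix of the library code took a median of 7.94% of a member's variance and 6.89% of that of an eligible gene. There were 6 prefixes, and their meaning is not given in the sources used here. Prefixes outnumber dietary groups, so they take a larger share on average when nothing differs. That average was not computed for the prefix. Its shares are therefore not compared with those of dietary group, and no effect of the prefix is read from them.

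The spread of the members was not the same in the 4 groups. Within a group, the median SD of a member was 0.109 in CON_Low, 0.142 in CON_High, 0.133 in PUFA_Low and 0.126 in PUFA_High. The eligible genes followed the same order, with median SDs of 0.238, 0.330, 0.299 and 0.268. Over the 100 members, the root mean square deviation of a heifer from the members' means had a median of 0.122. It was highest in heifer 9 of CON_High (0.233), heifer 10 of PUFA_Low (0.211) and heifer 11 of CON_High (0.209), and lowest in heifer 8 of CON_Low (0.0705). Chosen again without these 3 highest heifers, the list kept 77 of the 100 members.

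The dietary groups were next compared gene by gene with edgeR's quasi-likelihood F test, fitted to all 14363 genes and all 4 groups. A gene was called when its p-value, adjusted over all genes by Benjamini and Hochberg, was under 0.10 at any fold change. Because the members were chosen for a small SD over these same heifers, a low count of calls follows in part from the choice, and nothing is read from it. The span from the lowest to the highest of the 4 group means was 0.20 or less on the log2 scale for every member, or 1.15-fold, with a median of 0.075. For 73 members it was under 0.1. The eligible genes had a median span of 0.24.

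The plane of nutrition in n-3 PUFA heifers gave the most calls. In PUFA_Low against PUFA_High, 13 members were called, 10 higher and 3 lower, where 31.3% of all genes tested were called, 15% higher and 16.3% lower. The members' log2 differences ran from -0.13 to 0.20 and their median absolute value was 0.045, against 0.19 for the eligible genes. No member passed the fold change of 1.5 that the study asked of a differentially expressed gene. Of all genes tested, 5.61% were called at an adjusted p under 0.10 and also passed it. The study set a stricter false discovery rate and compared planes separately in pregnant and non-pregnant heifers, so this share is not set beside its counts. The 95% confidence intervals of the 100 differences reached at most 1.22-fold.

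ENSBTAG00000020154 had the largest increase. Its lowest, median and highest values were 67.2, 81.0 and 97.7 CPM in PUFA_Low and 60.1, 70.4 and 79.5 CPM in PUFA_High. The groups overlapped, and 13 of 15 PUFA_Low heifers were above the PUFA_High median. The log2 difference was 0.20 (SE 0.0460, adjusted p = 0.00142), and it had the same direction within each of the 6 code prefixes. In the control groups the medians were 74.7 CPM in CON_Low and 71.4 CPM in CON_High, both between those of the n-3 PUFA groups.

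ENSBTAG00000030366 followed, with 87.1, 100.1 and 114 CPM (lowest, median, highest) in PUFA_Low and 75.9, 89.7 and 98.2 CPM in PUFA_High. Again 13 of 15 PUFA_Low heifers were above the PUFA_High median. The log2 difference was 0.17 (SE 0.0480, adjusted p = 0.00851).

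The largest decreases were smaller. ENSBTAG00000021540 had 52.8, 63.1 and 69.8 CPM in PUFA_Low and 58.5, 69.2 and 81.1 CPM in PUFA_High, and 14 of 15 PUFA_Low heifers were below the PUFA_High median. Its log2 difference was -0.13 (SE 0.0476, adjusted p = 0.0385). ENSBTAG00000008736 had 56.0, 69.2 and 77.7 CPM in PUFA_Low and 62.0, 75.7 and 82.9 CPM in PUFA_High, with a log2 difference of -0.12 (SE 0.0491, adjusted p = 0.0568). Both decreases had one direction within all 6 code prefixes. The first lost its call without heifer 7 of PUFA_Low (adjusted p = 0.107), and the second without heifer 1, 6, 7 or 10 of PUFA_Low (adjusted p of 0.112 to 0.138). Neither was called with upper-quartile factors (adjusted p = 0.135 and 0.168) or with the replicate numbers of the labels as a block (adjusted p = 0.114 and 0.191). Of 11 alternatives to the main fit, 7 kept the call and direction of the first and 5 those of the second.

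The split into 10 higher and 3 lower members depended on the scale factors. With relative log expression factors it stayed at 10 and 3, with upper-quartile factors it was 14 and 0, and with library size alone it was 0 and 54. Leaving out the scale factors moved the median difference of all genes by -0.13, so differences between PUFA_Low and PUFA_High are relative to that shift. The share of reads in the 100 most abundant genes differed between these groups, as given above. With that share added to the model no member was called, and its part in the 13 calls cannot be told apart from that of the plane. The percentage of all genes called was not computed for that fit or for the other scale factors. The fit on PUFA_Low and PUFA_High alone called 8 members and 31.1% of all genes tested. In the fit of all 4 groups the count was 7 without heifer 10 of PUFA_Low.

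In control heifers the plane of nutrition gave no call. For CON_Low against CON_High edgeR called 0 members and 0% of all genes tested. DESeq2 also called 0 members, and its percentage of all genes was not computed. At an unadjusted p under 0.05 in edgeR there were 2 members and 705 genes, or 4.91% of all genes. The members' log2 differences ran from -0.13 to 0.13, and the widest confidence interval reached 1.18-fold. A restricted plane was thus accompanied in these heifers by differences of members no larger than about 1.10-fold, none past the test.

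The n-3 PUFA supplement gave calls on the low plane. Of the members, 5 were called in PUFA_Low against CON_Low, 4 higher and 1 lower, and 17.5% of all genes tested were called, 9.78% higher and 7.74% lower. Differences ran from -0.15 to 0.20, with no member over 1.5-fold, where 2.57% of all genes were both called and over it. The confidence intervals reached at most 1.23-fold. This comparison shares the PUFA_Low heifers with the comparison of planes above, and 4 members were called in both.

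ENSBTAG00000020630 had 47.0, 54.3 and 61.2 CPM (lowest, median, highest) in PUFA_Low and 42.9, 47.2 and 53.4 CPM in CON_Low. Its log2 difference was 0.20 (SE 0.0499, adjusted p = 0.00980). ENSBTAG00000017770 had 95.6, 110 and 129 CPM in PUFA_Low and 87.7, 99.8 and 111 CPM in CON_Low, a log2 difference of 0.17 (SE 0.0519, adjusted p = 0.0239). The lower member was ENSBTAG00000008736, with a median of 69.2 CPM in PUFA_Low and 74.8 CPM in CON_Low, a log2 difference of -0.15 (SE 0.0514, adjusted p = 0.0506). The groups overlapped for all 3 genes. Library size alone as the scale turned the split to 0 higher and 34 lower. With the share of the 100 most abundant genes in the model no member was called. The percentage of all genes called was not computed for either fit. The count was 2 without heifer 10 of PUFA_Low and 3 without heifer 6 or 7 of PUFA_Low or heifer 5, 9, 10, 12 or 14 of CON_Low.

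On the high plane the supplement gave no call among the members. For PUFA_High against CON_High edgeR called 0 members and 0% of all genes tested. DESeq2 also called 0 members, and its percentage of all genes was not computed. At an unadjusted p under 0.05 in edgeR there were 2 members and 1513 genes, or 10.5% of all genes. The smallest adjusted p of a member was 0.428. The members' log2 differences ran from -0.092 to 0.13, with intervals of at most 1.17-fold.

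**Figure D3:**
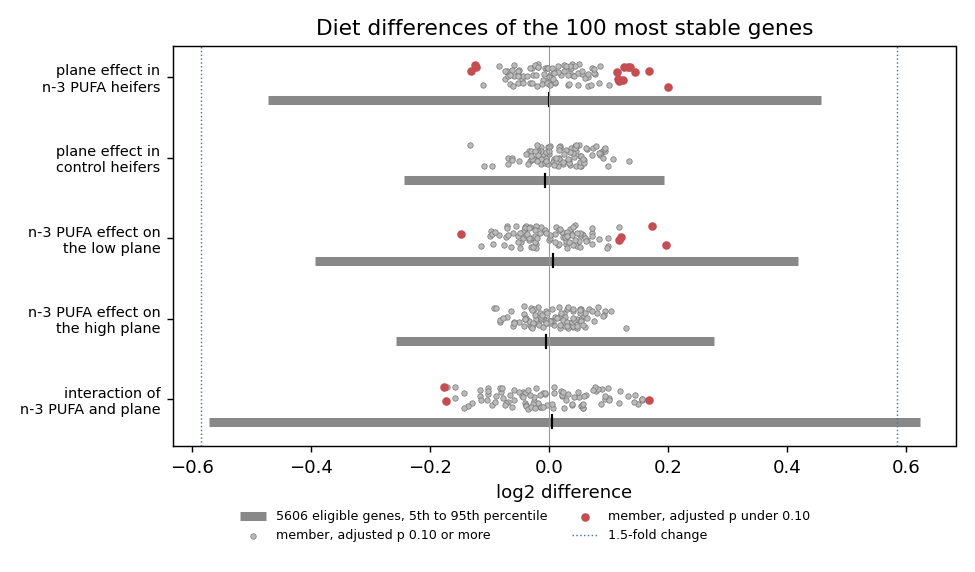
Log2 differences of the 100 most stable genes in the 4 comparisons of diets and in their interaction, with members of adjusted p under 0.10 in red, and the 5th to 95th percentile of the 5606 eligible genes as grey bars with the median in black. All members lie within 0.20 of 0 on the log2 scale, inside the grey bar in every comparison, and far from the dotted lines at 1.5-fold.

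The interaction, in which the plane effect of n-3 PUFA heifers was set against that of control heifers, was called for 3 members, 1 higher and 2 lower, and for 20.8% of all genes tested, 11.9% higher and 8.89% lower. None of the members passed 1.5-fold, where 8.04% of all genes were both called and past it. ENSBTAG00000000871 had medians of 49.6 and 52.7 CPM in CON_Low and CON_High, and 55.4 and 48.9 CPM in PUFA_Low and PUFA_High. Its interaction was 0.17 on the log2 scale (SE 0.0654, adjusted p = 0.0755), so the plane difference was more positive in n-3 PUFA heifers. The opposite holds for ENSBTAG00000008736, at -0.18 (SE 0.0717, adjusted p = 0.0883), and for ENSBTAG00000000212, at -0.17 (SE 0.0725, adjusted p = 0.0984). The last had medians of 123 and 113 CPM in CON_Low and CON_High and of 121 and 127 CPM in PUFA_Low and PUFA_High. These calls stood near the limit. With relative log expression factors 3 members were called, all higher, with upper-quartile factors 6, all higher, and with library size alone 28, all lower. DESeq2 called 8 members. For these alternatives the percentage of all genes called was not computed. Leaving out single heifers gave 1 to 7 members, the lowest count without heifer 4 of CON_Low among others and the highest without heifer 2 of CON_Low.

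The interferon response was read from ENSBTAG00000008471, a gene that spanned 1.58 to 11.2 log2 CPM over the 60 heifers. Its values fell into separate ranges, with no heifer between 4.19 and 7.33. Below this gap were 4 CON_Low, 3 CON_High, 4 PUFA_Low and 3 PUFA_High heifers, and above it were the other 46. Low and high values thus occurred in every dietary group. Each gene's slope on the log2 CPM of ENSBTAG00000008471 was fitted by edgeR with the 4 dietary groups in the model.

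The interferon slope was called for 28 members, 9 rising and 19 falling, where 38.7% of all genes tested were called, 16.4% rising and 22.3% falling. The slopes were shallow, from -0.025 to 0.027 log2 CPM per log2 CPM of the interferon gene. Multiplied by the whole span of 9.64 log2 units, the steepest gave 0.26 upward and -0.24 downward. Rising and falling members thus stood side by side in the list. With upper-quartile factors 3 members were called rising and 34 falling, and with library size alone 3 rising and 23 falling. The percentage of all genes called was not computed for these factors.

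ENSBTAG00000000320 had the steepest rise, with a lowest, median and highest value of 46.4, 58.5 and 69.8 CPM over the 60 heifers and a slope of 0.027 (SE 0.00499, adjusted p = 2.18e-05). ENSBTAG00000018924 rose with a slope of 0.020 (SE 0.00588, adjusted p = 0.00684) around a median of 121 CPM. ENSBTAG00000003745 fell with a slope of -0.025 (SE 0.00570, adjusted p = 0.000546) around a median of 106 CPM. ENSBTAG00000014838, the last of the 100 in rank, fell with a slope of -0.023 (SE 0.00599, adjusted p = 0.00174) around a median of 55.2 CPM.

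Because of the gap, the slopes were also fitted over the 46 heifers above it alone, which called 20 members and 30.5% of all genes tested. There the slope was 0.059 for ENSBTAG00000000320 (adjusted p = 0.00581), 0.064 for ENSBTAG00000018924 (adjusted p = 0.0184) and -0.071 for ENSBTAG00000003745 (adjusted p = 0.00202). For ENSBTAG00000014838 it was -0.024 with an adjusted p of 0.433, so this relation was not called within the upper range. No fit was made over the 14 heifers below the gap.

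**Figure D4:**
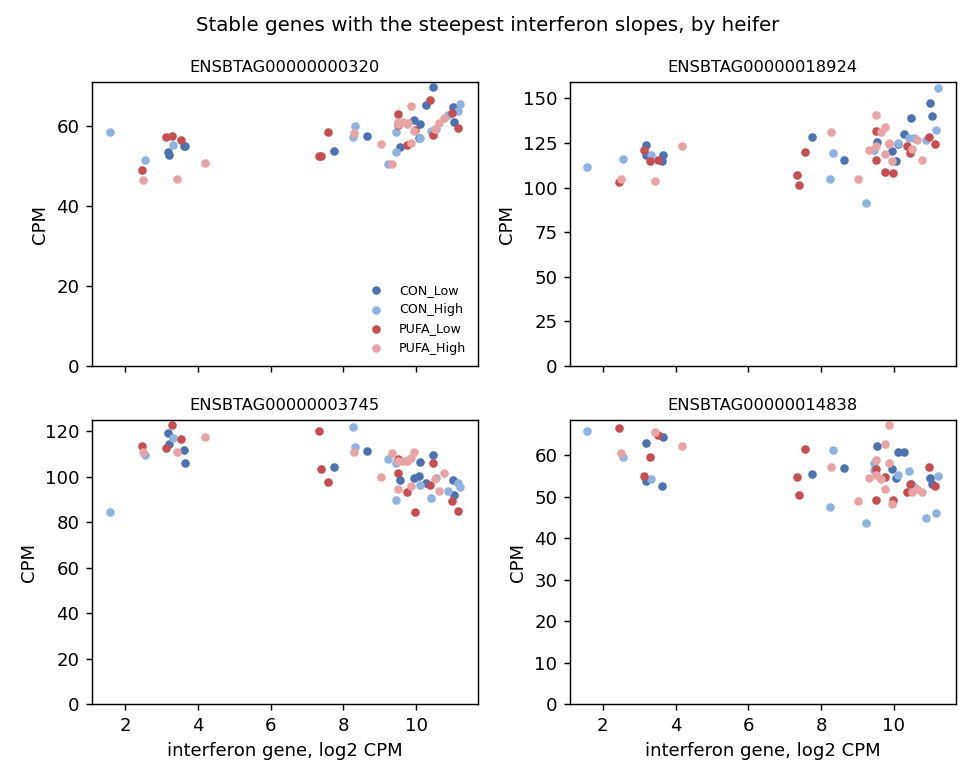
CPM of the members with the steepest interferon slopes, upward in the upper panels and downward in the lower panels, against the log2 CPM of ENSBTAG00000008471 in each of 60 heifers coloured by dietary group. The heifers fall into a lower and an upper range of the interferon gene with none between 4.19 and 7.33, and all 4 groups occur in both ranges.

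The share of reads in the 100 most abundant genes also moved with the members. In a fit with the dietary groups, its slope was called for 33 members, 23 rising and 10 falling, and for 51.6% of all genes tested, 25.3% rising and 26.3% falling. The slopes ran from -0.028 to 0.025 log2 CPM per percentage point, and over the 12.7 points between the lowest and the highest library the steepest gave -0.36 and 0.32. The lowest belonged to ENSBTAG00000008736 (SE 0.00590, adjusted p = 7.39e-05) and ENSBTAG00000019986, and the highest to ENSBTAG00000018954 (SE 0.00656, adjusted p = 0.00130) and ENSBTAG00000020630. ENSBTAG00000008736 and ENSBTAG00000020630 were also at the extremes of the diet comparisons. Without scale factors all 100 slopes were below 0 and 91 were called, so the rising direction rests on the scaling. Without the 3 heifers of highest deviation 20 members were called. Neither for this fit nor for that without scale factors was the percentage of all genes called computed.

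The calls overlapped within the list. Any diet comparison called 15 members, against 35.8% of the 14262 genes tested in every fit. Both slopes were called for 11 members and 16% of these genes. Of the 13 members called for the plane in n-3 PUFA heifers, 8 (61.5%) were also called for the share of abundant genes, and over all genes tested this proportion was 75.6%. In no comparison and for neither slope were 45 members called, against 20.6% of the genes, and as the members were chosen for a small SD nothing is read from this. Among these 45 members were ENSBTAG00000021771, ENSBTAG00000000215, ENSBTAG00000007515 and ENSBTAG00000001659, which held ranks 1, 2, 4 and 6 by SD.

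As a reference, the members were first averaged. The SD over heifers of the mean log2 CPM was 0.103 for the first member alone, 0.065 for the first 3, 0.058 for the first 5, 0.049 for the first 10, 0.043 for the first 20, 0.034 for the first 50 and 0.037 for all 100. With all 100, the group means lay between -0.013 and 0.0074, and the heifer farthest from 0, heifer 9 of CON_High, deviated 1.07-fold. The members were chosen for a small SD on TMM-scaled values of these same heifers. Small values of these averages are therefore partly set by the choice, and nothing is read from them.

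A scale factor for each library was then computed from the 100 members and set beside its TMM factor. The log2 difference of the factors had an SD of 0.038 over heifers, and the largest was 1.07-fold. The factors themselves varied more, with SDs of 0.104 for those of the members and 0.108 for TMM. In PUFA_Low the mean factor was 0.946 ± 0.0769 (SD, n = 15) from the members and 0.941 ± 0.0763 (SD, n = 15) by TMM. In PUFA_High it was 1.03 ± 0.0547 and 1.03 ± 0.0516 (SD, n = 17). Since the members were chosen on TMM-scaled values, this likeness is partly set by the choice.

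**Figure D5:**
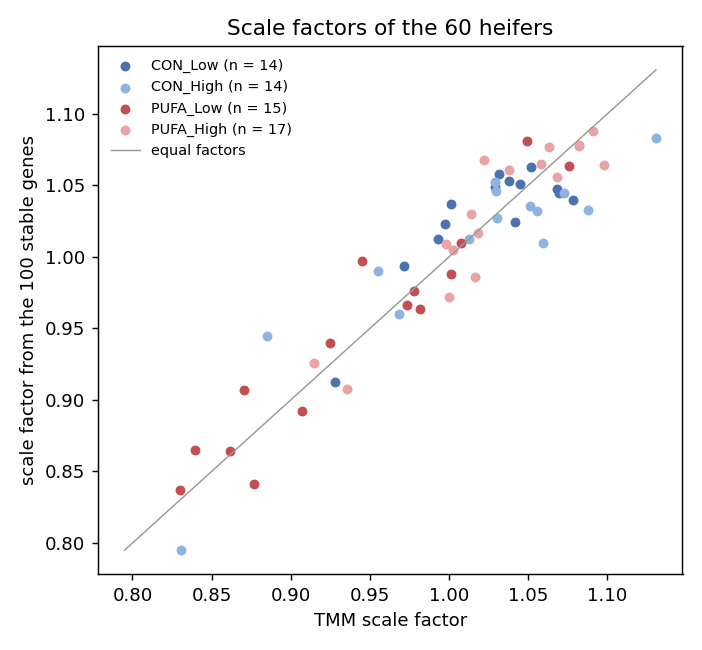
Scale factor of each library from the 100 most stable genes (vertical) against its TMM factor (horizontal) for 60 heifers, coloured by dietary group, with a line where both are equal. Points follow the line, the largest distance is 1.07-fold, and most factors under 0.9 belong to PUFA_Low heifers.

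The comparisons of all genes were repeated with the members' factors. As the members were chosen on TMM-scaled values, a likeness of the calls is also partly set by the choice, and nothing is read from it. For the plane in n-3 PUFA heifers 4451 genes were called, against 4493 with TMM, and 4375 were called with both. With the fold change limit of 1.5 the counts were 792 and 806, with 783 in both. For the supplement on the low plane 2500 and 2517 genes were called, 2444 of them in both. For the interaction there were 2930 and 2982 genes, with 2819 in both, and the share that was higher went from 57.2% with TMM to 61.9%. The plane in control heifers and the supplement on the high plane remained at 0 genes. The median log2 difference of all genes moved by less than 0.02 in all 5 comparisons.

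To describe stability in heifers that had no part in the choice, the rule was applied to each diet separately. The 100 genes chosen in the 28 control heifers had a median SD of 0.118 there and of 0.151 in the 32 n-3 PUFA heifers, where the eligible genes had a median of 0.314. Of these 100 genes, 29 were among the 100 smallest SDs of the n-3 PUFA heifers, 70 among the 500 smallest, and all 98 that were eligible there lay below the median of the eligible genes. The 100 genes chosen in n-3 PUFA heifers went from a median SD of 0.128 to 0.145 in control heifers, against 0.293 for the eligible genes. There, 29 were among the 100 smallest SDs, 73 among the 500 smallest and 100 below the median. The full list shared 57 genes with the choice in control heifers and 64 with that in n-3 PUFA heifers. A low SD in one diet was thus accompanied by a low SD in the other, while most of the genes were not among the 100 smallest SDs there.

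In the diet test on genes chosen in the other heifers, the heifers tested had no part in the choice. The interferon gene and the share of abundant genes varied in both diets. Genes that move with either could still be passed over by the choice, so these counts remain partly limited by it. Of the 100 genes chosen in control heifers, 24 were called between PUFA_Low and PUFA_High in a fit on the n-3 PUFA heifers alone. Of these, 10 were higher and 14 lower. In that fit 31.1% of all genes tested and 39.3% of the eligible genes were called. Their log2 differences ran from -0.34 to 0.26 and none passed 1.5-fold. The median absolute difference was 0.067, against 0.19 for the eligible genes. The interferon slope in n-3 PUFA heifers was called for 13 of them, 7 rising and 6 falling, and for 30.9% of all genes. The genes chosen in n-3 PUFA heifers gave 0 calls by edgeR for the plane in control heifers, where 0% of all genes were called and 3 of the 100 had an unadjusted p under 0.05. Their interferon slope in control heifers was called for 11, 1 rising and 10 falling, and for 18.2% of all genes.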

How the data were processed

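Single-end Illumina TruSeq mRNA libraries of 60 endometrial samples were used. Per the labels and the study's methods, the authors processed reads with CASAVA 1.4, aligned them to the bovine genome UMD3.1 with TopHat2 2.0.9 and counted reads per gene with HTSeq 0.5.4p5. The deposited values are raw counts per Ensembl gene, without normalisation, and 3947 of 24616 genes had no count. Multi-mapping and overlapping genes can lose reads in such counting, and symbols and gene lengths were not used here, so levels are not compared between genes per length.

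From the counts, genes were filtered with filterByExpr on the 4 dietary groups, scaled by TMM and expressed as log2 CPM with a prior count of 2 (edgeR 4.0.16 in R 4.3.3). Tests were edgeR's quasi-likelihood F tests with 1 coefficient per group over all 60 heifers, and Benjamini-Hochberg adjustment over all genes tested. Counts from DESeq2 1.42.0 are given as an alternative. Scripts were tested on simulated data. The variance share of a factor is its share of the sum of squares of log2 CPM over heifers. Member scale factors are the mean, over members, of log2 CPM on raw library size minus the member's mean.

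Members, lists and tests were chosen with earlier results of these data known. Genes named in a comparison are the members with the largest difference or slope, at most 2 in each direction, together with the first members by SD and the extremes of abundance. The RefSeq table given (37063 genes) matched 0 Ensembl identifiers, so reference-gene, pathway and cell type marker lists could not be applied, and the tissue was not checked against its markers. No 2 libraries of a group were near-identical: over 423 pairs the smallest chi-square per gene was 17.6. Other scalings, filters, measures of spread, blocks, covariates and sets of heifers were tried as alternatives.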

Additional observations from a re-analysis of the deposited data

Results flagged for a closer look

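The plane effect differed between n-3 PUFA and control heifers for 3 members by a test of the difference itself, the interaction term of the edgeR model, which was called for 20.8% of all genes tested. On the log2 scale it was 0.17 for ENSBTAG00000000871, -0.17 for ENSBTAG00000000212 and -0.18 for ENSBTAG00000008736. In the fit of all 4 groups the plane difference of ENSBTAG00000000871 was 0.14 (adjusted p = 0.0215) in n-3 PUFA heifers and -0.031 (adjusted p = 0.956) in control heifers. For ENSBTAG00000008736 these were -0.12 (adjusted p = 0.0568) and 0.051 (adjusted p = 0.917). Its difference was not called in the fit on PUFA_Low and PUFA_High alone (adjusted p = 0.102). For ENSBTAG00000000212 the plane differences in the fit of all 4 groups were -0.084 (adjusted p = 0.221) and 0.090 (adjusted p = 0.911), so neither was called on its own. When single heifers were left out in turn, the interaction of ENSBTAG00000000212 lost its call in 38 of 60 fits, that of ENSBTAG00000008736 in 27 and that of ENSBTAG00000000871 in 1, without heifer 9 of CON_High (adjusted p = 0.102).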

How the results depend on the processing

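Of the 100 members, 28 were kept with library size alone as the scale, 57 by the median absolute deviation, 57 in control heifers alone, 64 in n-3 PUFA heifers alone and 65 without the PUFA_Low heifers. The other 11 alternatives kept 68 to 100, and leaving out single heifers kept 80 to 100. The count of 13 for the plane in n-3 PUFA heifers became 54 with library size alone, 6 at an adjusted p under 0.05, 8 with only the groups compared and 0 with the share of abundant genes. The count of 5 for the supplement on the low plane became 34, 2 and 0 under library size alone, the stricter p and that share, and 3 without the expression filter. The count of 3 for the interaction became 28, 0 and 0 under these, 6 with upper-quartile factors, 0 without the filter, 1 with the code prefix as a block, 0 without the 3 farthest heifers and 8 by DESeq2. The share, the 3 farthest heifers and the splits by scaling were chosen after seeing the data. The count of 28 for the interferon slope became 17 at the stricter p, and that of 33 for the share became 20 without the 3 farthest heifers. With single heifers left out, the counts ranged from 7 to 15, 2 to 6, 1 to 7 and 21 to 30 for the plane in n-3 PUFA heifers, the supplement on the low plane, the interaction and the interferon slope, and were 0 to 0 for both other comparisons. The count of genes called with the members' factors stayed between 4410 and 4460 under its 4 alternatives, which also used genes chosen on TMM-scaled values. The slope on the share was not refitted without single heifers. Apart from the fit on PUFA_Low and PUFA_High alone, the percentage of all genes called was not computed beside these counts of members. The cause of these changes was not tested.

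The study's texts give the sizes of the n-3 PUFA groups both ways, and swapping PUFA_Low with PUFA_High gave 0 members for the supplement on the low plane, 3 on the high plane and 1 for the interaction. By construction the plane differences turned to -0.20 for ENSBTAG00000020154, -0.17 for ENSBTAG00000030366, 0.13 for ENSBTAG00000021540 and 0.12 for ENSBTAG00000008736, and the interactions became -0.10 for ENSBTAG00000000871, 0.073 for ENSBTAG00000008736 and -0.0060 for ENSBTAG00000000212, none of them called. With the share of abundant genes the plane difference of ENSBTAG00000008736 was 0.011.

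The study assigned planes in blocks of heifers within each pre-insemination diet, and the labels do not give these blocks. Whether the replicate numbers of the labels follow them is not known. Deviations of same-numbered heifers had a mean correlation of -0.053, and 18 of 85 pairs were over 0.1. For heifers of different numbers the mean was 0.0046. The main model had no block. With the replicate numbers as a block the counts were 4 for the plane in n-3 PUFA heifers and 2 for the supplement on the low plane. They were 0 for the interaction, 19 for the interferon slope and 24 for the share. The percentage of all genes called with this block was not computed. Depth limits the least abundant members most, since counting error was up to 31.9% of their variance.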
